A study of Mus musculus with 193 samples.

Results

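Solute carrier (Slc) genes encode membrane transporters, and 85 of them were taken as expressed in mouse testis cells sorted for an Id4-eGFP reporter. The deposited table has 19642 rows, of which 344 carry a symbol made of Slc and a digit. A row was a member when its mean log2(RPM + 1) over all 193 cells was at least 1. RPM is the number of reads scaled to 1000000 per cell, and this mean is called the level. The members were chosen by this measured level, so levels are given as a description throughout. The members belong to 29 of the 48 families with a row, 13 of these families had 1 member, and family 25 alone had 20. Just inside the threshold lay Slc10a7 (level 1.07), Slc9a8 (1.05) and Slc10a3 (1.05), and just outside lay Slc35b3 (0.97), Slc25a28 (0.96) and Slc35e1 (0.94). Another 19 Slc rows reached a level of 1 in some group without reaching it over all cells, and 1 Slc row was at 0 in every cell. The symbols of a few members match the rule although their products are not transporters: Slc4a1ap, Slc7a6os and the scaffold protein gene Slc9a3r1.

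The cells came from wild-type mice at postnatal day 3 (WT P3, 71 cells), mice of the same age labelled as Rhox10 knockout (labelled KO, 69 cells) and wild-type mice at postnatal day 7 (WT P7, 53 cells). All groups share the Id4-eGFP gate, which selects on a gene of spermatogonial stem cells. The level of Id4 itself was 3.61 in WT P3, 1.93 in labelled KO (difference -1.67, -2.61 to -1.05) and 2.29 in WT P7 (-1.32, -1.76 to -0.87), and the part of that in the results was not tested. How the Rhox10 allele was made, and how many animals gave the cells, is not given in the sources used here. Letters in the sample titles, not explained by the labels, divide WT P3 into set A (16 cells) and B (55), labelled KO into A (21), B (12) and C (36), and WT P7 into A (12) and B (41). Each group counts as 1 sample, so no p-value is given. A group's level is the mean of its sets' levels, and a difference is followed by its range over all pairs of sets, with 6 pairs for the genotype label and 4 pairs for age. Both comparisons use the same WT P3 cells.

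Each cell gave 251530 to 10663507 reads in total and 4837 to 8598 genes above 1 RPM. All 193 cells had Ddx4 or Dazl, germ cell genes, above 1 RPM. The mean level of 11 germ cell markers was 3.26 in labelled KO set A and 3.72 to 4.28 in the other P3 sets. Their summed level was 10.1 in the lowest cell of that set and 30.8 in the lowest cell of all other sets. Set A also had the highest myoid and stromal markers (0.72 against 0.24 to 0.42 in the other P3 sets). Endothelial markers were 0.57 against 0.24 to 0.49, and leukocyte markers 0.17 against 0.13 to 0.43. Rhox10 had levels of 1.78 and 1.49 in the WT P3 sets and, for the labelled KO sets in order, 2.48, 2.62 and 0.83, so set C alone lay below both WT P3 sets. The label is therefore used as a label. Labelled KO set A stood apart: the mean level of 14 genes of G2 and mitosis was 1.58 there and 3.41 to 4.60 in the other P3 sets, and that of 8 Sertoli cell markers was 1.2 against 0.23 to 0.58. Of those 8 markers, Clu alone had a level of at least 1 over all cells. The summed level of the Sertoli markers ran from 0 to 40.2 per WT P3 cell, from 0 to 48.2 per labelled KO cell and from 0 to 4.23 per WT P7 cell, and Amh and Fshr, which define Sertoli cells, were at 0 in every WT P7 cell.

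Solute carriers move amino acids, sugars, ions, metals, nucleotide sugars, vitamins and lipids across cell membranes. Most of family 25 does the same across the inner mitochondrial membrane. The whole of family 25 is called the mitochondrial carriers here, with the peroxisomal Slc25a17 counted among them. Several need a partner to reach the surface: Slc3a2 is the heavy chain that carries light chains such as Slc7a5 and Slc7a6, and Bsg escorts the lactate and pyruvate transporter Slc16a1. In the testis, germ cells are known for a mitochondrial ADP/ATP carrier of their own, Slc25a31 (ANT4), beside Slc25a4 (ANT1) and Slc25a5 (ANT2) of other tissues.

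Promoters are shown for some of the genes on which the results turn. These are the germ cell ADP/ATP carrier and its X-linked paralog, then the members with the highest and the lowest difference between P7 and P3. Windows were also sought for Slc25a4 and Slc25a39, and none is shown. A window was dropped where the promoter source lacked it or where too much of it lay inside the gene. The bases come from RefSeq (GRCm38.p6) and lie before the start site, on the strand of the gene. Bases that GENCODE M21 places inside the gene were left out. Capitals mark TCCCGC, the core of E2F sites, or CACGTG, an E-box, searched on both strands.
Slc25a31, chr3:40708621-40708854, plus strand: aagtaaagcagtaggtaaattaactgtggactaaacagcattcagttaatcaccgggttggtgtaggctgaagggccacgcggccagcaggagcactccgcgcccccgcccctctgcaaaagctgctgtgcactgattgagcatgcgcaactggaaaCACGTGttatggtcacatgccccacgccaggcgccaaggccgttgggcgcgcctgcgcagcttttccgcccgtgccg
Slc25a5, chrX:36795347-36795596, plus strand: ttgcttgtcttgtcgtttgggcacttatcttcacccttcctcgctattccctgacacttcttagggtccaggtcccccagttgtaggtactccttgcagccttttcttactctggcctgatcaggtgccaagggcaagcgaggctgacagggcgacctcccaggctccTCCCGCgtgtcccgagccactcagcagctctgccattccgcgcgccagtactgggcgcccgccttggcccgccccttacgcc
Slc35b4, chr6:34177112-34177304, minus strand: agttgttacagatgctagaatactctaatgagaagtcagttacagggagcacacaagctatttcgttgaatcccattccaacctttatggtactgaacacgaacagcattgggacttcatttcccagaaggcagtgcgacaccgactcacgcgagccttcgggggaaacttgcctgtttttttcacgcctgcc
Slc25a12, chr2:71367756-71368005, minus strand: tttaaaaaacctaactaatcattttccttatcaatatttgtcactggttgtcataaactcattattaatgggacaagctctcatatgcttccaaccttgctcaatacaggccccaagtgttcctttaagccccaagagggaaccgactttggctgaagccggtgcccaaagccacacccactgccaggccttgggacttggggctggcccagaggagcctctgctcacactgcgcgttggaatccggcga
The CACGTG of Slc25a31 begins 93 bases before its RefSeq start and the TCCCGC of Slc25a5 begins 82 bases before its start. No match to either set of letters was found in the windows of Slc35b4 and Slc25a12. Of the members, 64 matched the promoter table, with 85 promoters in all. Over windows of 250 bases, TCCCGC was present in 37.6% of member promoters, in 32.9% of the 7266 promoters of genes with a level of at least 1 and in 16.9% of all 32817 promoters. CACGTG was present in 14.1%, 9.54% and 6.02% of them. The median number of CG dinucleotides was 15 in member promoters, 18 for expressed genes and 6 for all. These matches are descriptions of letters and show no binding.

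The mitochondrial carriers held the highest levels per length. Values per kilobase of merged exon were 71.2 RPM for Slc25a31, 38.2 for the phosphate carrier Slc25a3, 23.3 for Slc25a5 and 20.7 for Slc25a4. The next were the heavy chain Slc3a2 at 13.1, Slc25a39, which is needed for glutathione in mitochondria, at 11.9, the peroxisomal carrier Slc25a17 at 10.8, the phosphate importer Slc20a1 at 9.3 and Slc35b1, an ATP carrier of the endoplasmic reticulum, at 8.9. The row of Slc24a5 had 23.5 RPM per kilobase, and its reading is limited. Slc24a5 is known as a pigment cell exchanger, and 714 of its 1954 exonic bases overlap exons of Myef2 on the opposite strand. Across cells within a set, Slc24a5 and Myef2 correlated at Pearson r of 0.94 to 0.99 in the 7 sets (12 to 55 cells each). The strand setting of the counting is not given, so reads of these genes cannot be told apart. Exons of 27 members overlap another gene, and for 10 of them a partner is in the table. Among the members described with their values, Slc35b4, Slc29a1, Slc11a2, Slc30a7, Slc38a10, Slc18a2, Slc2a1, Slc25a10, Slc44a1 and Slc20a1 also overlap antisense genes, pseudogenes or other genes on the opposite strand. After centring by set, the next highest r of an overlapping pair was 0.55 for Slc25a26 and Lrig1, and the other 9 pairs had r of at most 0.24. The Slc24a5 row was examined after its values were seen.

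By family number, family 25 had 20 members of 44 rows, and its summed RPM was 372 in WT P3, 455 in labelled KO and 385 in WT P7. Family 35, the nucleotide sugar transporters and relatives, had 8 of 23 rows, with summed RPM of 52.5, 65.3 and 83.1, led by Slc35b1 per kilobase. The zinc families 39 and 30 had 6 of 12 and 5 of 10 rows, with Slc39a6 (8.6 RPM) and Slc30a6 (3.1 RPM) the highest per kilobase in each. The zinc importer family 39 summed to 62.5, 71.9 and 65.3 RPM, and the zinc exporter family 30 to 38.7, 38.9 and 44.6 RPM. Family 38, sodium-coupled neutral amino acid transporters led per kilobase by Slc38a2, had 5 of 11 rows and sums of 55, 86.6 and 47.2 RPM. Of its labelled KO sum, set A had 139.9 RPM and sets B and C had 60.7 and 59.2. Family 7 had 4 of 14 rows and sums of 30.5, 31.6 and 42.5 RPM. The cation-chloride cotransporters of family 12, led per kilobase by Slc12a2, had 3 of 9 rows and sums of 54.8, 77.4 and 87.0 RPM. Families 4 and 9, bicarbonate transporters and sodium/proton exchangers, had 4 of 11 and 3 of 12 rows, and the highest member per kilobase was in each a gene whose product is no transporter, Slc4a1ap (2.6 RPM) and Slc9a3r1 (7.6 RPM). Sums weight abundant genes most and are given for description. They are on the deposited scale, and their direction between groups can depend on it. Over all members, the median cell had a summed RPM of 988 in WT P3, 1183 in labelled KO and 1184 in WT P7. As a share of the RPM on genes, the medians were 0.877%, 0.876% and 0.773%.

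Slc25a31 (ENSMUSG00000069041.8, chromosome 3, 40708855 to 40726096, plus strand, mm10) was above 1 RPM in every cell. Its lowest, median and highest cell had 42.6, 153 and 315 RPM in WT P3, 2.35, 154 and 611 RPM in labelled KO and 27.6, 127 and 348 RPM in WT P7. By set its level was 7.00 and 7.24 in WT P3 A and B, 6.33, 7.72 and 7.47 in labelled KO A, B and C, and 6.31 and 7.21 in WT P7 A and B. The groups overlapped, with labelled KO set A and WT P7 set A both low. Of the 3 ADP/ATP carriers it was highest per kilobase in 66 of 71 WT P3 cells, 61 of 69 labelled KO cells and 46 of 53 WT P7 cells.

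Slc25a4 (ENSMUSG00000031633.4, chromosome 8, 46206797 to 46211284, minus strand) had a level of 4.97 and 5.13 in the WT P3 sets, 5.94, 5.34 and 5.36 in labelled KO sets A to C, and 4.12 and 4.10 in WT P7 sets A and B. The set levels of the 3 groups did not overlap. The cells did: the lowest, median and highest were 2.49, 35.2 and 93.2 RPM in WT P3, 0.36, 48.9 and 223 RPM in labelled KO, and 0, 16.6 and 62.3 RPM in WT P7. WT P7 was lower than WT P3 by a difference of -0.95 (pairs -1.04 to -0.85), and labelled KO was higher by 0.49 (0.20 to 0.97), or 0.29 without set A.

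Slc25a5 (ENSMUSG00000016319.3, chromosome X, 36795651 to 36798807, plus strand) had 4.5 and 4.78 in WT P3, 3.48, 4.45 and 4.86 in labelled KO and 4.81 and 4.83 in WT P7. Its difference at P7 was 0.18 (0.03 to 0.33) as deposited and -0.25 after rescaling cells to their reads on genes, so its direction rests on the scale. Within the summed RPM per kilobase of the 3 carriers, where a factor common to a group cancels, Slc25a31 made up 62.5% in WT P3, 62.5% in labelled KO and 60.1% in WT P7. Slc25a5 made up 19.5%, 15.5% and 27.3%, and Slc25a4 18%, 22% and 12.5%. Both WT P7 sets had more Slc25a5 (30.8% and 24.9%) than the WT P3 sets (18.7% and 20.3%), whereas the Slc25a4 shares of 16.9% and 9.46% overlapped those of WT P3 at 19.5% and 16.6%. In labelled KO set A, Slc25a4 reached 38.3% and Slc25a31 made up 47%, against 71.7% and 63.5% in sets B and C. These shares were computed after the levels were seen.

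**Figure D1:**
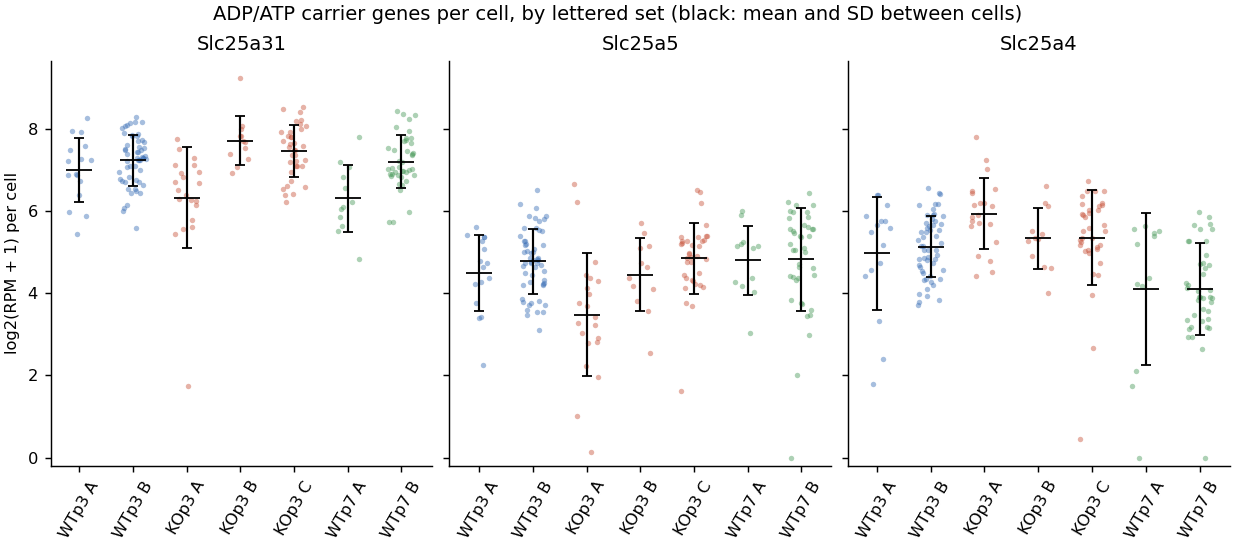
ADP/ATP carriers by lettered set (WTp3, KOp3 and WTp7 stand for WT P3, labelled KO and WT P7). The vertical axis is log2(RPM + 1), each point is 1 cell, and black marks give the mean and SD between cells. Slc25a4 is lower in both WT P7 sets (4.12 and 4.10) than in both WT P3 sets (4.97 and 5.13). The low Slc25a31 point of KOp3 A is 1 cell at 1.74. The next lowest cell of that set is at 5.44, beside 5.45 for the lowest cell of WTp3 A.

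Across ages, 11 of the 85 members (12.9%) differed by at least 1 with the same sign in all 4 pairs of sets, beside 9.86% of all 7788 genes with a level of at least 1. The nucleotide sugar transporter Slc35b4, the mitochondrial Slc25a39, the magnesium transporter Slc41a1, the iron importer Slc11a2 (DMT1) and the cationic amino acid transporter Slc7a1 (CAT1) were higher at P7. The aspartate/glutamate carrier Slc25a12, the amino acid importers Slc38a4 and Slc38a1, the nucleoside transporter Slc29a1 (ENT1), the borate transporter homolog Slc4a11 and the peroxisomal Slc25a17 were lower. The 5 higher are 5.88% of the members beside 6.83% of all genes, and the 6 lower are 7.06% beside 3.03%. At any size, 21 members (24.7%) were higher in every pair beside 35.5% of all genes, and 18 (21.2%) were lower in every pair beside 16.7%. The median difference of the members was -0.05 (median in single pairs from -0.25 to 0.12), with 40 above 0 and 45 below, and that of all genes was 0.15. The level rule, used for the 7788 genes too, leans on P3, since WT P7 gave 53 of 193 cells. Of 80 Slc rows with a level of at least 1 in WT P3, 78 were members, against 76 of 87 in WT P7. A gene low at P7 can thus pass through its P3 cells. Over every Slc row with any value above 0, 5 were again higher and 6 lower, with a median of -0.03. The part of the rule in these counts was not tested.

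The split between higher and lower members depends on the scale. Rescaling each cell to its reads on genes, or by the median ratio of 2650 widely detected genes, moved the median of all genes from 0.15 to -0.14 in both cases and the median of the members to -0.29 and -0.27. The members' median minus that of all genes was -0.20 as deposited and -0.15 and -0.13 rescaled. Slc35b4 was then the only higher member, with 10 lower members under the first rescaling and 9 under the second, and these included all 6 named above. Weighting all cells equally left 2 higher (Slc25a39, Slc35b4) and 3 lower (Slc25a12, Slc29a1, Slc38a4).

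Slc35b4 (ENSMUSG00000018999.14, chromosome 6, 34153380 to 34177111, minus strand) had the highest difference, 1.66 (1.43 to 1.89). In sets A and B of WT P3 its level was 1.79 and 1.59, followed by 1.96, 2.12 and 2.29 in labelled KO sets A to C, and 3.23 and 3.48 in WT P7 sets A and B. The lowest, median and highest cell had 0, 2.42 and 26.1 RPM in WT P3 and 0, 11.3 and 94.5 RPM in WT P7. Every WT P7 set therefore lay above every P3 set, while single cells overlapped. Mean RPM was 4.32-fold higher at P7. In WT P7, 84.9% of cells were above 1 RPM (exact 95% binomial interval 72.4% to 93.3%), against 59.2% (46.8% to 70.7%) in WT P3. The intervals pool the cells of a group and cover counting error only. Cells are not replicates of an age, so the intervals are no test between the ages. With cells thinned to 1000000 reads, which left out 5 WT P3 cells, 88.7% and 66.7% of cells had a read. Its row overlaps the antisense gene Gm13856.

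Slc25a39 (ENSMUSG00000018677.9, chromosome 11, 102402985 to 102407946, minus strand) had levels of 3.08 and 3.37 in WT P3, 3.59, 4.0 and 4.11 in labelled KO and 4.73 and 4.47 in WT P7. The lowest, median and highest cell had 0, 10.1 and 49.3 RPM in WT P3 and 1.43, 24.2 and 68.4 RPM in WT P7. The WT P7 sets were above all P3 sets, with a difference of 1.38 (1.11 to 1.65). Rescaled, it stayed positive at 0.97 and 0.99.

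The other 3 higher members rested more on 1 set. Slc41a1 had 2.11 and 1.79 in WT P3 and 3.82 and 2.28 in WT P7 sets A and B, a difference of 1.10 (0.17 to 2.03). Slc11a2 had 1.06 and 1.02 against 2.36 and 1.73, a difference of 1.01 (0.67 to 1.35). Slc7a1 had 2.18 and 2.68 against 3.80 and 3.07, a difference of 1.00 (0.39 to 1.62), or 0.66 and 0.64 rescaled. In each of these genes set A of WT P7 was the higher one, and without that set Slc25a39 and Slc35b4 alone stayed past the threshold among the higher members.

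Slc25a12 (ENSMUSG00000027010.16, chromosome 2, 71271063 to 71367749, minus strand), a carrier of the malate-aspartate shuttle, had the lowest difference, -1.86 (-2.78 to -0.93). Its levels were 3.38 and 1.75 in WT P3, 3.30, 2.63 and 1.56 in labelled KO and 0.82 and 0.60 in WT P7. The P3 sets differed widely among themselves, yet both WT P7 sets lay below all of them. It was above 1 RPM in 20.8% of WT P7 cells (10.8% to 34.1%) and in 67.6% of WT P3 cells (55.5% to 78.2%). These intervals too cover counting error only and are no test between the ages. Thinned cells with a read of Slc25a12 were 22.6% and 74.2%. Its close relative Slc25a13, which carries the same solutes, had a difference of -0.46 (-0.66 to -0.25).

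Slc38a4 (ENSMUSG00000022464.14, chromosome 15, 96994820 to 97055956, minus strand), a sodium-coupled amino acid importer encoded by an imprinted gene, had levels of 3.19 and 1.90 in WT P3, 5.02, 2.63 and 2.07 in labelled KO and 1.03 and 0.98 in WT P7. The lowest, median and highest cell had 0, 3.27 and 53.8 RPM in WT P3 and 0, 0 and 36.4 RPM in WT P7. Both WT P7 sets were low, and the difference was -1.54 (-2.21 to -0.87). The system A importer Slc38a1 had 3.11 and 2.53 in WT P3 and 1.92 and 1.61 in WT P7, a difference of -1.06 (-1.50 to -0.61). Its paralog Slc38a2 did not follow, at 4.29 and 3.68 against 4.02 and 3.84 (-0.05, pairs -0.45 to 0.34).

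Slc29a1 had levels of 2.47 and 1.74 in WT P3 and 0.52 and 0.85 in WT P7, a difference of -1.42 (-1.94 to -0.89). Slc4a11 had 2.60 and 1.43 against 0.42 and 1.01, a difference of -1.30 (-2.17 to -0.42). Slc25a17 had 4.35 and 3.22 against 2.15 and 2.94, a difference of -1.24 (-2.20 to -0.28). In all 3, WT P3 set A was the highest of the 4 sets. Without that set 3 members were lower by at least 1, namely Slc25a12, Slc25a4 and Slc29a1. The Sertoli marker levels that accompany the ages were 0.58 and 0.54 in WT P3 and 0.00 and 0.10 in WT P7, and the G2 and mitosis levels were 3.41 and 4.09 against 2.67 and 5.15; their part in these differences was not tested.

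**Figure D2:**
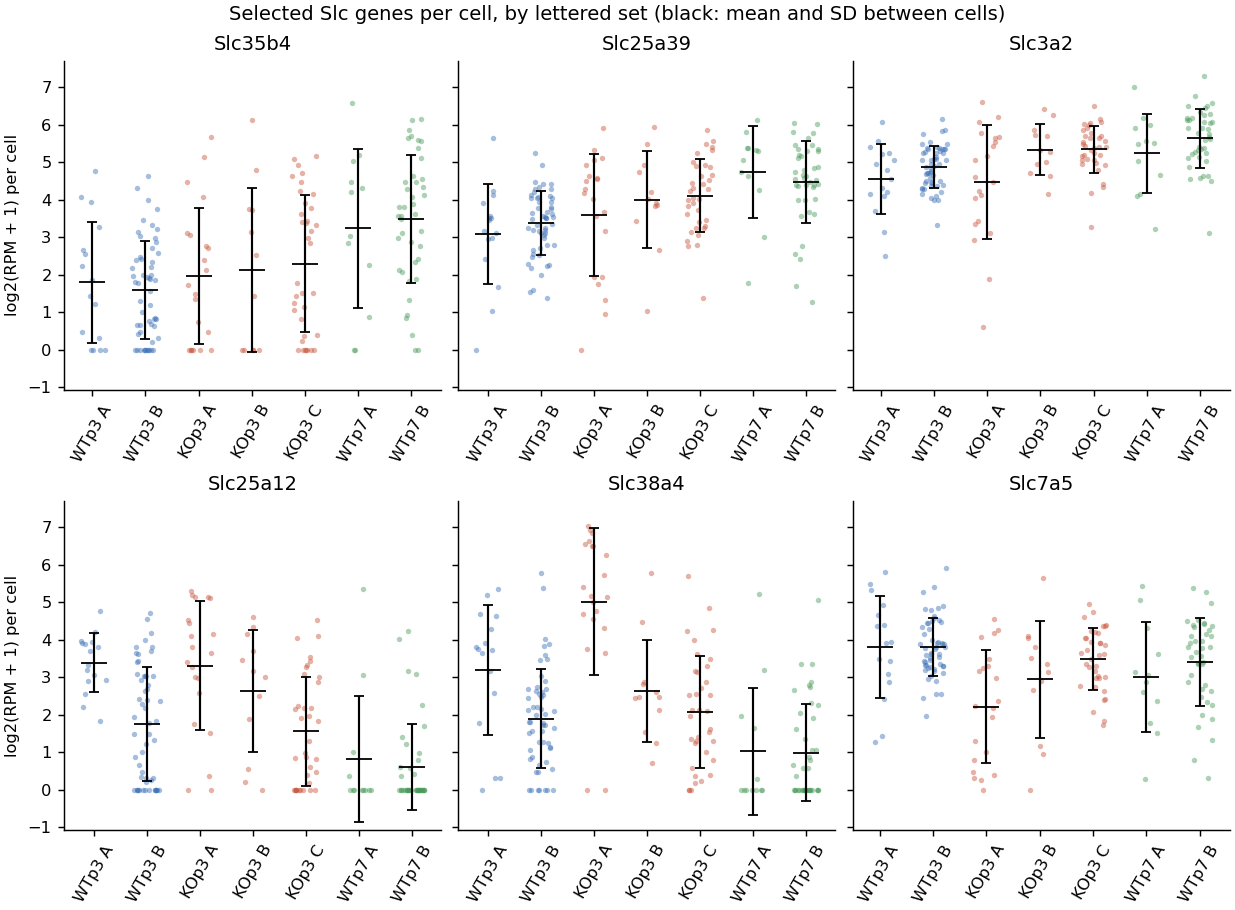
Selected members by lettered set, on log2(RPM + 1) per cell, with 1 point per cell and black marks for the mean and SD between cells. Slc35b4 and Slc25a39 are higher in both WT P7 sets than in both WT P3 sets, Slc25a12 and Slc38a4 are lower, Slc38a4 is highest in KOp3 A (5.02), and Slc7a5 is lowest there (2.21).

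At P7 the heavy chain Slc3a2 and the light chain Slc7a6 were higher, and the light chain Slc7a5 was lower. Slc3a2 (ENSMUSG00000010095.13, chromosome 19, 8706882 to 8723369, minus strand) had levels of 4.56 and 4.87 in WT P3, 4.47, 5.33 and 5.34 in labelled KO and 5.23 and 5.63 in WT P7. Its difference at P7 was 0.72 (0.36 to 1.08) as deposited, and 0.29 and 0.28 under the rescalings. Its partner for large neutral amino acids, Slc7a5 (LAT1, ENSMUSG00000040010.10, chromosome 8, 121881150 to 121907694, minus strand), had 3.80 and 3.80, then 2.21, 2.94 and 3.48, then 3.00 and 3.41. WT P3 had the highest Slc7a5 of all sets, and the difference at P7 was -0.59 (-0.80 to -0.39), or -0.98 and -0.96 rescaled. Another light chain, Slc7a6, had 1.34 and 1.38 in WT P3 against 2.71 and 1.67 in WT P7 (0.83, 0.29 to 1.36). The cystine exchanger Slc7a11, also a partner of Slc3a2, was no member, with a level of 0.17 over all cells. Across cells of a set, r between Slc3a2 and Slc7a5 ranged from -0.19 to 0.58, and r between Slc3a2 and Slc7a6 from -0.30 to 0.61. The pairs Slc25a4 and Slc25a5, Slc2a1 and Slc2a3, and Slc16a1 and Bsg likewise changed sign between sets.

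Sugar and monocarboxylate transporters had a median difference of -0.47 at P7, with 2 of 7 above 0, where 4712 of all 7788 genes were. The glucose transporter Slc2a1 (GLUT1) was higher, at 2.03 and 2.44 against 1.38 and 1.67 (0.71, 0.35 to 1.06, and 0.43 and 0.40 rescaled), while Slc2a3 (GLUT3) had 1.39 and 0.70 against 2.05 and 1.34 (-0.65, -1.35 to 0.05). The inositol transporter Slc5a3 was lower by a difference of -0.65 (-1.14 to -0.16, and -1.03 and -1.02 rescaled), but its exons overlap those of Mrps6 on the same strand. The other member of family 5, the multivitamin transporter Slc5a6, had a difference of 0.10 (-0.19 to 0.39). The 5 members of families 10, 18, 19 and 23, grouped as organic solutes, vitamins and drugs, were below 0 at P7, with a median of -0.46. Over all genes, 3076 of 7788 were below 0. Of the 5, Slc10a3 and Slc10a7 lay just inside the level threshold (1.05 and 1.07). Also among the 5 were the thiamine transporter Slc19a2 (-0.96, -1.75 to -0.17) and the vesicular monoamine transporter Slc18a2 (-0.71, -0.90 to -0.51). The choline transporter Slc44a1 had a difference of -0.84 (-1.35 to -0.32).

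Ion transporters had a median of -0.06, with 6 of 13 above 0, where 4712 of all 7788 genes were. The potassium chloride cotransporter Slc12a7 was higher in a narrow range, 0.73 (0.63 to 0.82), with levels of 2.92 and 3.09 in WT P3 and 3.74 and 3.72 in WT P7. Rescaled, its difference was 0.35 and 0.34. The sodium-potassium-chloride cotransporter Slc12a2 was also higher (0.57, 0.12 to 1.02), and had 0.15 under both rescalings. Metal transporters had a median of 0.12, with 10 of 15 above 0, near the median of 0.15 over all genes. Both counts depend on the scale. Rescaled to reads on genes, the only metal transporters above 0 were Slc11a2 (0.83), Slc39a1 (0.21) and Slc41a1 (0.80). The only ion transporters above 0 were then Slc12a2, Slc12a7 and Slc9a8 (0.25). The median of all genes was -0.14 on that scale. The highest of them per kilobase, at 8.6 RPM, was the zinc importer Slc39a6, with levels of 4.93 and 5.07 in WT P3 and 4.56 and 4.69 in WT P7 (-0.38, -0.51 to -0.25, and -0.80 under both rescalings). The mitochondrial carriers had a median of -0.05, with 6 of 20 higher and 6 lower in every pair. Higher beside Slc25a39 were the phosphate carrier Slc25a3, at 6.35 and 6.49 against 5.58 and 5.91 (0.67, 0.44 to 0.90, and 0.23 and 0.22 rescaled), and the dicarboxylate carrier Slc25a10 (0.72, 0.18 to 1.27).

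**Figure D3:**
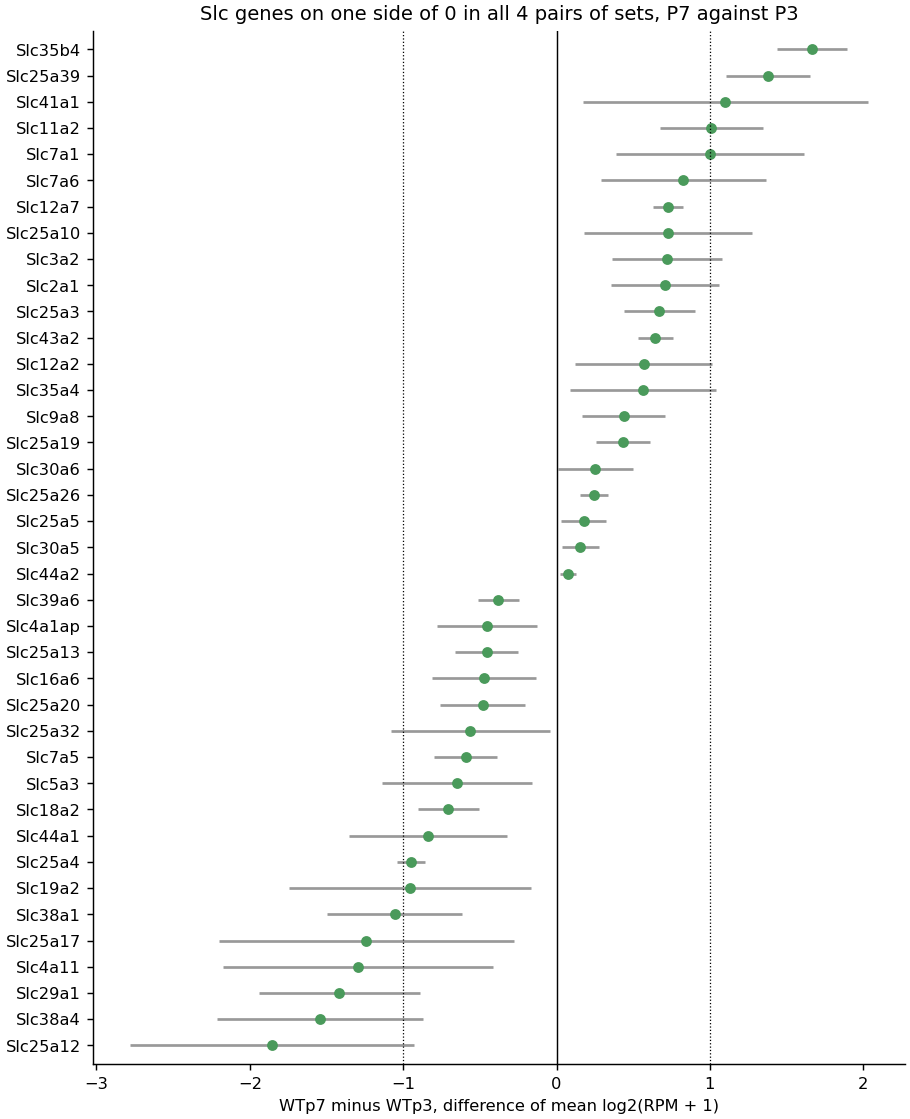
Difference of mean log2(RPM + 1) between WT P7 and WT P3 (horizontal axis) for the 39 members on one side of 0 in all 4 pairs of sets. Points are group differences, bars span the pairs and dotted lines mark -1 and 1; Slc35b4 (1.66) and Slc25a12 (-1.86) are at the ends.

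In the labelled KO cells no member was higher by at least 1 with the same sign in all 6 pairs, where 1.07% of all genes were. One member was lower, the Golgi zinc transporter Slc30a7 (ZnT7), which is 1.18% of members beside 0.578% of all genes, and 1.64% of all genes passed in either direction. At any size, 11 members (12.9%) were higher in every pair beside 16.8% of all genes, and 7 (8.24%) were lower beside 5.5%. The members' median was 0.13 (median in single pairs from -0.08 to 0.39), with 53 above 0 and 32 below, and the median of all genes was 0.12. Without labelled KO set A these medians were 0.10 and 0.26. Rescaling to reads on genes moved the medians to -0.040 and -0.07.

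Slc30a7 (ENSMUSG00000054414.4, chromosome 3, 115938973 to 116007406, minus strand) had levels of 3.57 and 2.75 in WT P3, 1.65, 2.25 and 2.41 in labelled KO and 3.07 and 3.13 in WT P7. All labelled KO sets lay below all WT sets, with a difference of -1.05 (-1.92 to -0.34). It was -0.83 without set A of the labelled KO cells, and it was also under the threshold without set A of WT P3, with all cells weighted equally, with RPM averaged before taking logarithms and with a pseudocount of 10. The zinc transporter Slc30a9 of mitochondria went the other way, at 1.88 and 2.10 in WT P3 and 2.93, 2.52 and 2.93 in labelled KO (0.80, 0.42 to 1.05). The zinc importer Slc39a10 had 2.75 and 2.94 against 3.49, 3.87 and 3.21 (0.68, 0.27 to 1.13). Other members of the metal group included Slc30a6 at 0.71 in labelled KO set A and 1.81 to 2.27 in the other P3 sets.

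Among amino acid transporters, Slc7a5 was lower in every pair (-0.92, -1.59 to -0.31), and -0.59 without set A. Its lowest, median and highest WT P3 cell had 1.41, 12.8 and 59.2 RPM. Slc7a6 was lower by a small difference of -0.27 (-0.46 to -0.14). Higher in every pair were Slc7a1 (0.72, 0.29 to 1.28), Slc38a10 (0.72, 0.37 to 1.16) and the proton-coupled family member Slc36a4 (0.65, 0.28 to 1.22). Slc3a2 was not on one side, with 0.33 (-0.40 to 0.78), and had 0.62 without set A. Slc38a4 spanned 0 widely at 0.69 (-1.12 to 3.12), and had -0.20 without set A.

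Of the mitochondrial carriers, 16 of 20 were above 0, with a median of 0.27, and 4 of 20 were higher in every pair. Over all genes 4901 of 7788 were above 0, with a median of 0.12, and 16.8% were higher in every pair. Rescaling moved the median of all genes to -0.07 and -0.00. The count of 16 also depends on the scale. Rescaled to reads on genes, Slc25a3 and Slc25a31, both above 0 as deposited, had -0.01 and -0.23. The 4 carriers higher in every pair included the S-adenosylmethionine carrier Slc25a26 (0.76, 0.28 to 1.44), whose exons overlap Lrig1. The others were the citrate carrier Slc25a1 (0.73, 0.29 to 1.23), Slc25a39 (0.68, 0.22 to 1.03, and 0.45 and 0.53 rescaled) and Slc25a4 (0.24 and 0.33 rescaled). The remaining members higher in every pair were Slc45a4 (0.79, 0.13 to 1.42) and Slc35b4 (0.43, 0.17 to 0.71). Lower in every pair were also Slc10a7 (-0.85, -1.44 to -0.38), Slc35b1 (-0.45, -0.64 to -0.23, and -0.68 when rescaled to reads on genes), Slc24a5 (-0.40, -0.83 to -0.07, and -0.67 so rescaled), whose row cannot be told apart from Myef2, and Slc18a2 (-0.38, -0.66 to -0.11).

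**Figure D4:**
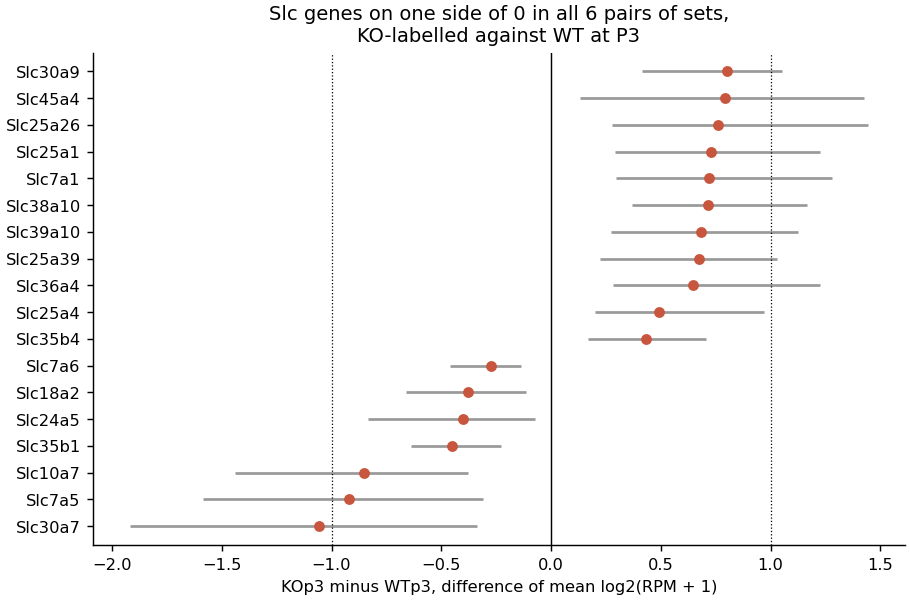
Difference of mean log2(RPM + 1) between labelled KO and WT P3 (horizontal axis) for the 18 members on one side of 0 in all 6 pairs of sets. Points are group differences and bars span the pairs; Slc30a7 (-1.05) is the only one past 1 in size.

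Labelled KO set A differed from each of the other 4 P3 sets by at least 1 in 4 members, a comparison made after that set was seen to stand apart. The amino acid importer Slc38a4 (5.02 against 1.90 to 3.19) and the taurine transporter Slc6a6 (3.32 against 0.73 to 1.85) were higher, where 0.822% of all genes were. Slc30a6 and Slc35f2 (1.79 against 3.09 to 3.56) were lower, where 4.13% of all genes were. The Sertoli marker and cell division levels given above move with this set, and their part in these values was not tested.

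**Figure D5:**
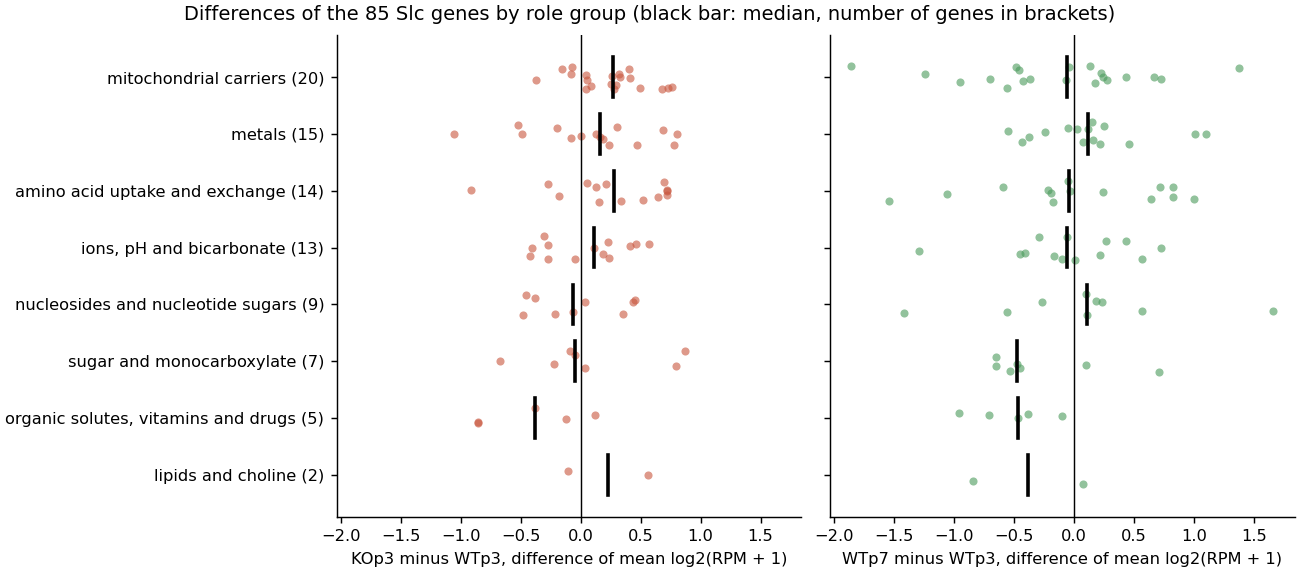
Differences of the members by role group, labelled KO minus WT P3 and WT P7 minus WT P3, on the log2(RPM + 1) scale. Each point is 1 member and each bar the group's median; at P7 the organic solute group (families 10, 18, 19 and 23) is below 0 and its median is -0.46, while the vitamin transporter Slc5a6 (0.10) is counted in the sugar group.

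Cells of a group differed most in Slc18a2, whose SD between cells within sets was 2.23. It was above 1 RPM in 46.5% of WT P3, 43.5% of labelled KO and 32.1% of WT P7 cells, with the highest cells at 94.7, 132 and 100 RPM. Its median cell had 0.17, 0.25 and 0 RPM, and in each group fewer than 50% of cells were above 1 RPM. Next were Slc38a2 (SD 2.02), the magnesium transporter Slc41a2 (1.94), Slc5a3 (1.86) and Slc16a1 (1.85). Among the members highest per length, the SD was 0.72 for Slc25a3 and 0.74 for Slc25a31. Over all cells, 14 members were above 1 RPM in at least 90% of cells and 26 in fewer than 50%. Within WT P7, sets A and B were farthest apart in the sulfate transporter Slc26a2 (-1.64, A minus B), Slc41a1 (1.54) and Slc41a2 (-1.34).

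Genes that work with the transporters were listed apart from the members. Of 36 transport partners and related carriers, 28 had a level of at least 1. At P7, Bsg (1.22, 1.08 to 1.35), the lysosomal cystine exporter Ctns (1.03, 0.26 to 1.80) and Mfsd1 (1.44, 0.83 to 2.04) were higher, and the transferrin receptor Tfrc (-1.57, -2.74 to -0.40) and the phosphate exporter Xpr1 (-1.0, -1.74 to -0.26) were lower. Over all genes with a level of at least 1, 9.86% passed at P7 in either direction. The median of the 28 was -0.01, beside 0.15 for all genes. Tfrc had levels of 5.17 and 4.92 in WT P3 against 2.43 and 4.52 in WT P7, whereas Slc11a2, which acts with it in iron uptake, was higher. None of the 28 passed in the labelled KO comparison, where 1.64% of all genes did. Their median there was 0.02, beside 0.12 for all genes. Of 24 genes of amino acid sensing and stress, 17 had a level of at least 1 and none passed in either comparison. Their medians were 0.36 at P7 and 0.14 in labelled KO, beside 0.15 and 0.12 for all genes. In lists this short, none passing beside 1.64% of all genes is no result about the lists. The transcription factor gene Atf4, which is known to act on amino acid transporter genes, had 2.80 and 3.28 in WT P3, 3.86, 3.07 and 3.84 in labelled KO and 3.26 and 4.11 in WT P7.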

How the data were processed

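Single cells were captured on a Fluidigm C1 chip with SMARTer cDNA, ERCC spike-ins and Nextera XT libraries, per the labels' protocols. STAR 2.3.0, HTSeq 0.6.1 and mm10 are named, without roles, per the submitters' processing notes. The table the authors deposited is named TPM, but its values are RPM: with a tolerance of 0.001 RPM, 99.999% of values per cell were whole reads on average. The rows sum to 8.13% to 23.0% of each cell's total. The plan assumed TPM and its measures were applied to RPM. The 84 ERCC rows and Rn45s were left out, which leaves 19557 genes. No count test on the recovered reads was run, because labels name no animal and each group is 1 sample.

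Levels are means over cells of log2(RPM + 1), a scale that understates differences of low genes. A gene was called where its difference reached 1 in size with every pair of sets on one side of 0. Exon lengths and overlaps came from GENCODE M21. Intervals cover counting error only. Python 3.11.15, numpy 2.4.6, pandas 2.3.3 and scipy 1.17.1 were used.

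The members and gene lists were chosen with earlier results of these data known. Named genes were the up to 12 highest and 12 lowest members per comparison among those on one side of 0 in every pair, the 10 highest per length, the highest of each family with at least 3 members, the 5 most variable, the fixed pairs, the 3 on each side of the threshold and the called genes of other lists. Other names were chosen after their values were seen. Alternatives covered the pseudocount, scale, weighting, member threshold, depth and each set left out.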

Additional observations from a re-analysis of the deposited data

How the results depend on the processing

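For the 12 called genes, 24 of 145 alternative values moved by more than their spread. These genes were called for having 1 sign in every pair of sets, which fixes their sign in the 49 values that leave out a set, and none of the other 96 reversed. Among members not called, Slc25a5 at P7 went from 0.18 to -0.25 under both rescalings. Many others changed sign as well when rescaled to reads on genes. Slc5a6 and Slc24a5, above 0 as deposited, then had -0.07 and -0.42. In family 30, 3 of 5 members were above 0 at P7 as deposited, and all 5 were below 0 so rescaled. For labelled KO against WT P3, the median of the members became -0.040 when cells were rescaled to reads on genes and 0.33 when averaging RPM before taking logarithms. It was 0.0047 without labelled KO set B and 0.011 without WT P3 set B. Without labelled KO set A, its set C or WT P3 set A it was 0.10, 0.19 and 0.20. The count of higher members, 0 in the report, became 5 with a pseudocount of 0.1 and 2 with RPM averaged first, and 0 to 3 when a set was left out (3 without labelled KO set A, 1 without its set C, 2 without either WT P3 set). The count of lower members, 1 in the report, became 3 with a pseudocount of 0.1, 0 with one of 10, 2 under either rescaling, 0 with cells weighted equally, 0 with RPM averaged first, and 0 to 3 when a set was left out (0 without set A of either group, 2 without labelled KO set B, 3 without its set C or without WT P3 set B).

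For WT P7 against WT P3, the median became -0.33 and 0.045 with pseudocounts of 0.1 and 10, -0.29 and -0.27 under the rescalings, 0.015 with cells weighted equally, 0.24 with RPM averaged first and 0.11 for members with a level of at least 2. It was 0.0088 without WT P3 set A and 0.041 without WT P7 set A. The 5 higher members became 0 with a pseudocount of 10, 1 under either rescaling, 2 with cells weighted equally, 9 with RPM averaged first, 3 in the 188 cells with at least 1000000 reads and 2 without WT P7 set A. The 6 lower members became 19 and 0 with pseudocounts of 0.1 and 10, 10 when rescaled to reads on genes, 3 with cells weighted equally, 3 with RPM averaged first, 3 among members with a level of at least 2, 3 without WT P3 set A and 10 without WT P3 set B or WT P7 set B. Where these changes do not follow from the alternative's own construction, the cause was not tested. No paired analysis was possible because no test was made and the set letters are not stated to pair samples. Depth limits members near the threshold, where a level is a few reads per cell.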
